A study of Caenorhabditis elegans with 4 samples.

Results

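The regions described here are the RNA polymerase III binding sites called on chromosome III of Caenorhabditis elegans. They were chosen by chromosome alone and number 369 of the 2173 peaks in the series-wide list. RNA polymerase III makes tRNAs, 5S rRNA and a few other short non-coding RNAs, and RPC-1 is its largest subunit. At tRNA genes the factor TFIIIC first binds the A and B boxes, which lie inside the transcribed gene, and TFIIIB then brings in the polymerase, so that the enzyme is found over the gene itself. The chromosomes of the worm are holocentric, with no single centromere, and each autosome has a gene-rich centre with little recombination between arms that recombine often and hold more repeats.

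Chromatin immunoprecipitation with sequencing (ChIP-seq) was done on wild-type N2 hermaphrodites at the young adult stage, with rpc-1 as the labelled target. The animals were reared at 20 °C and fed HB101 bacteria, then fixed with 2% formaldehyde. All 4 libraries, 2 from ChIP and 2 from input DNA kept before precipitation, share this strain, genotype, stage and sex, so that no group differs by genotype or treatment. The protocol names antibodies to GFP and to RNA polymerase II; no source used here gives the one for RPC-1. There are 3 peak lists, 1 from each ChIP library and 1 of the series. The labels do not say whether the replicates came from separate worm cultures, and p-values refer to peaks, not to replicates. Positions are those of build WormBase WS220. Each peak carries a caller value, which has the form of a q-value and was taken to be lower for a stronger peak. Peaks were ranked by it over the whole genome, and each list was divided into 5 equal classes (quintiles), of which quintile 1 is the best. Read depth is unknown, and a region missing from a list was not called there, which does not show that it was unbound.

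No sequence of this build was used, so peaks are named by position and not by gene. In the RefSeq genes of WBcel235, a later assembly, chromosome III carries 64 of 612 nuclear tRNA genes (10.5%), among them sup-5, a tRNA gene known for mutations that suppress nonsense codons. It also has 33 of 209 tRNA pseudogenes (15.8%) and 13 of 129 snRNA genes. The 13 include 6 sls-2 genes, which encode spliced leader RNA and belong to another polymerase. None of the 16 5S rRNA genes of the rrn-4 family, nor rpr-1, mrpr-1 or yrn-1, is on III. These counts were not matched to peaks.

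Chromosome III had more peaks for its length than any other chromosome in the series-wide list. Its 369 peaks made up 17.0% of the list (95% Wilson interval 15.5 to 18.6), while III is 13.8% of the genome span (adjusted p = 0.00013 over 6 tests, exact binomial test). This was 26.8 peaks per Mb over a span of 13.8 Mb. The next densest, X, had 24.4 per Mb, and the other autosomes had from 16.7 on I to 21.5 on V. With each close run of peaks counted as 1 region, III had 310 regions, or 22.5 per Mb, and still came first, ahead of X with 21.2. Replicate 2 gave the same place to III, with 348 peaks, 25.3 per Mb and 21.6 regions per Mb. In replicate 1 III came after X, with 159 peaks and 11.5 per Mb against 16.2 on X. There the share on III was 2.00 points above the span share (exact binomial test, adjusted p = 0.2), and in the best 50% of the series-wide list 1.80 points (exact binomial test, adjusted p = 0.19).

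The weaker ranks made up more of III than the strong ones. Quintile 1 held 52 peaks of III, 14.1% of the 369, against 383 of 1804 (21.2%) on the other chromosomes. The difference of −7.14 points (adjusted p = 0.0049, Fisher's exact test) had a Newcombe 95% interval of −10.9 to −2.81. Set against the other autosomes alone it was −0.56 points (adjusted p = 0.87, Fisher's exact test), with an interval of −4.30 to 3.75, so that the difference rested on X, where 42.1% of the peaks were in quintile 1. In peaks per Mb, quintile 1 gave 3.77 on III, 10.3 on X and 2.45 to 3.49 on the other autosomes. Quintiles 2 to 5 together gave 23.0 per Mb on III, above the 19.1 of V, the next in order, and the 14.1 of X. In replicate 2 these worse quintiles also put III first, at 21.6 per Mb, and in replicate 1 III stood at 10.0 and X at 10.4.

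**Figure D1:**
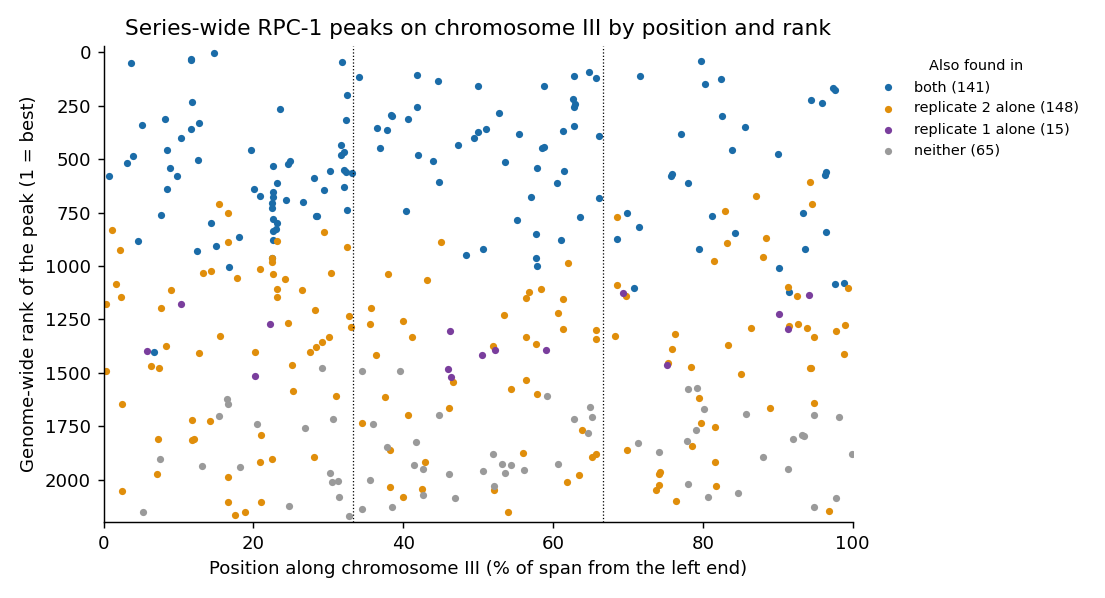
Each point is a series-wide peak of chromosome III, placed by its position along the chromosome (percent of the span, x) and its genome-wide rank (y, best at the top), and coloured by the replicate lists that also hold it; dotted lines part the 3 segments. All 52 peaks of quintile 1 are in both replicates (99.8% over all chromosomes), and the 65 peaks found in neither lie at rank 1480 or worse.

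The strongest site was III:2030722-2033267, which was also the widest at 2546 bp and had a listed value of 0, tied with 6 peaks of other chromosomes. Replicate 2 had it as a single peak of 2506 bp with a value of 0. Replicate 1 had 2 peaks there, of 1385 bp (rank 21) and 934 bp (rank 83), with 209 bp between them. Next came III:1600455-1601836 (rank 29) and III:1603709-1604985 (rank 35), which lie in one run together with another peak at rank 360. The first of these was again 1 peak in replicate 2 (rank 32) and 2 in replicate 1 (ranks 128 and 270). III:10989218-10990103 (rank 42) ranked 23 in replicate 1 and 38 in replicate 2. III:4378263-4379326 (rank 46) ranked 60 and 50, and III:502513-503108 (rank 51), the narrowest of the best 10 at 596 bp, ranked 26 and 46. These 6 sites thus lay among the best 128 of replicate 1 and the best 50 of replicate 2, and 5 of the 6 were in the left segment of the chromosome.

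The other 4 of the best 10 were further down the genome-wide order. III:8937385-8938137 ranked 90, III:5761536-5762712 ranked 108, III:8652750-8653779 ranked 112 and III:9861170-9862202 ranked 113. The first 3 of these lay in the middle segment. All 4 were in both replicates, between ranks 90 and 177 in replicate 1 and 94 and 123 in replicate 2. The 5 widest peaks of III included 3 of the best 10, and III:11066013-11067212 (1200 bp, rank 147). The remaining one, III:12996736-12998087 (1352 bp), ranked only 609 and was called in replicate 2 (rank 600) but not in replicate 1.

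Some strong peaks lay near each other. When quintile 1 peaks of III with midpoints at most 50 kb apart were joined, a spacing set after the data were seen, 9 groups held 2 or more. The largest, III:8639015-8678717, had 5 of the 52 within 39.7 kb, at ranks 112 to 346. The next, III:1598920-1619345, had 4 within 20.4 kb and contained the peaks of rank 29 and 35. The median distance between neighbouring quintile 1 peaks was 186 kb, and the longest 1223 kb. Whether these peaks lie closer together than an even spread or other chromosomes would give was not tested.

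The comparison of arms with the centre was made on 3 equal segments of the span of III, each 4.59 Mb long. No source used here gives recombination boundaries on this build, so these segments are not the arms and centre set by recombination. Taken at all ranks, the share of peaks in the centre was close to an even spread. The left segment (1 to 4593016) had 143 peaks (38.8%, 33.9 to 43.8), the middle one 122 (33.1%, 28.5 to 38.0) and the right one (from 9186034) 104 (28.2%, 23.8 to 33.0). The middle share differed from an even spread by −0.27 points (exact binomial test, adjusted p = 0.96), and by 2.80 points when each close run counted as 1 region. It was 3.24 points above the 29.8% of the other chromosomes (adjusted p = 0.34, Fisher's exact test), with an interval of −1.84 to 8.61.

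The segments differed by rank. Of the 52 quintile 1 peaks, 26 (50.0%, interval 36.9 to 63.1) were in the middle, 15 in the left and 11 in the right segment. In quintile 2 the order changed, with 44 of 79 (55.7%, 44.7 to 66.1) in the left segment and 16 (20.3%) in the middle. Quintile 3 had 33 of 79 on the left, and the worst quintile was nearly even, with 26, 33 and 26 of 85. Replicate 2 had 24 of 50 quintile 1 peaks in the middle and 41 of 72 quintile 2 peaks on the left. In replicate 1, whose list is shorter and whose quintiles cover other ranks, the middle had 9 of 21 in quintile 1 and 13 of 27 in quintile 2. The left segment there had 11 of 27 in quintile 2 and 42.8% of the peaks at all ranks. In quintiles 3 to 5 of replicate 1 the left had 17 of 38, 17 of 35 and 17 of 38, and the middle 13, 7 and 11. Its quintile 2 thus showed no turn to the left, but the left led the middle from quintile 3 on. Series-wide quintile 2 covers ranks 436 to 870, which in the 1009 peaks of replicate 1 lie beyond quintile 2. The same quintile number therefore does not compare the same ranks. On autosomes I, II, IV and V together, 35.8% of quintile 1 was in the middle, with 43.6% on I, 44.0% on II, 33.3% on V and 26.2% on IV. The values of I and II lay within the interval of III, as did the 38.5% of X, where the middle share fell to 16.5% in quintile 2. Of quintile 2, 32.5% was on the left on autosomes I, II, IV and V together, from 26.1% on V to 41.4% on IV. Their middle share of quintile 2 was 26.7%, from 11.4% on IV to 35.5% on II, and on each of them it was lower than in quintile 1. At all ranks 29.7% of the peaks of these autosomes were on the left and 39.4% on the right. These shares by rank and segment were noticed in the data, and whether III differs in them from other autosomes was not tested.

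**Figure D2:**
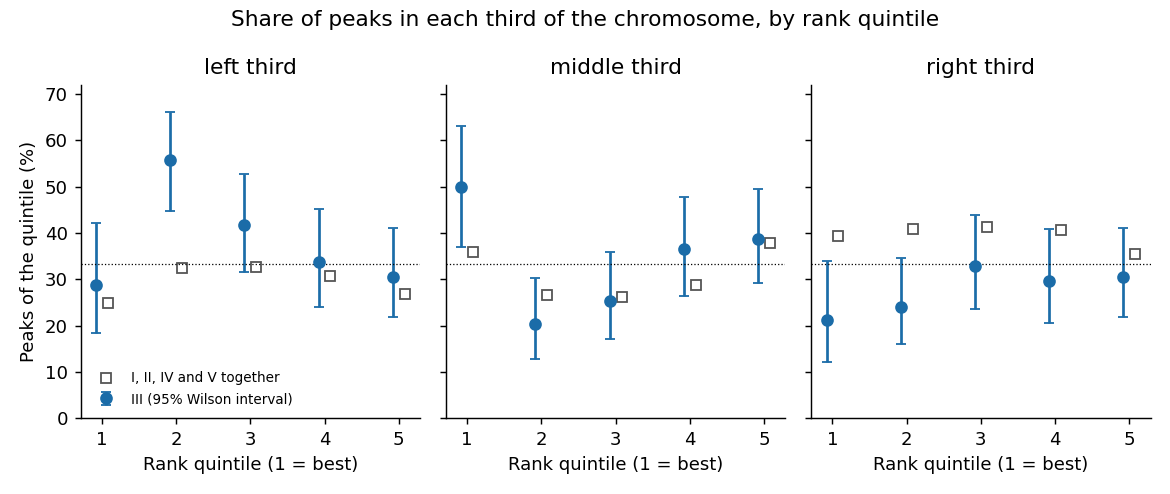
Percent of the peaks of each rank quintile (x, 1 is best) that lie in the left, middle and right segment of the chromosome, for III (filled circles, 95% Wilson intervals, which take peaks as independent) and for autosomes I, II, IV and V together (open squares); the dotted line is an even spread. On III the middle holds 50.0% of quintile 1, and the left holds 55.7% of quintile 2. Of these 44 left peaks of quintile 2, 22 lie outside close runs.

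Close runs lay mostly in the left segment. Runs were defined by gaps of at most 2 kb, and 96 peaks of III (26.0%) were in 37 of them, against 421 of 1804 (23.3%) elsewhere, a difference of 2.68 points (adjusted p = 0.34, Fisher's exact test) with an interval of −1.99 to 7.75. Without the longest run of III the difference was −0.022 points. The other chromosomes kept all their runs there, so this difference could only fall. Most runs were pairs (28), 6 held 3 peaks, and 1 each held 4, 5 and 13. The left segment had 19 runs with 57 peaks, the middle 10 runs with 20 and the right 8 runs with 19. All 3 runs of 4 or more were on the left. Counted as regions, the left segment had 105, the middle 112 and the right 93, so that the order of the first pair turned. Of the 53 quintile 2 peaks outside runs, 22 were among the 44 on the left, 15 were in the middle and 16 on the right.

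The longest run, III:3099223-3112382, held 13 peaks in 13.2 kb, and peaks covered 46.8% of it. Its strongest peak was the last, III:3111962-3112382, at rank 531 in the series-wide list, 572 in replicate 1 and 538 in replicate 2. Of the 13, 7 were in quintile 2, 5 in quintile 3 and 1, III:3102939-3103099, in the worst quintile. None reached quintile 1. Replicate 1 had called 9 of them, with a median width of 284 bp and ranks from 572 to 996 of its 1009. Replicate 2 covered the same stretch with 12 peaks, of median width 535 bp and ranks from 538 to 1430 of its 2041. The 4 that replicate 1 lacked ranked 962, 981, 1040 and 1902 in the series-wide list, 4 of the 5 weakest places in the run.

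**Figure D3:**
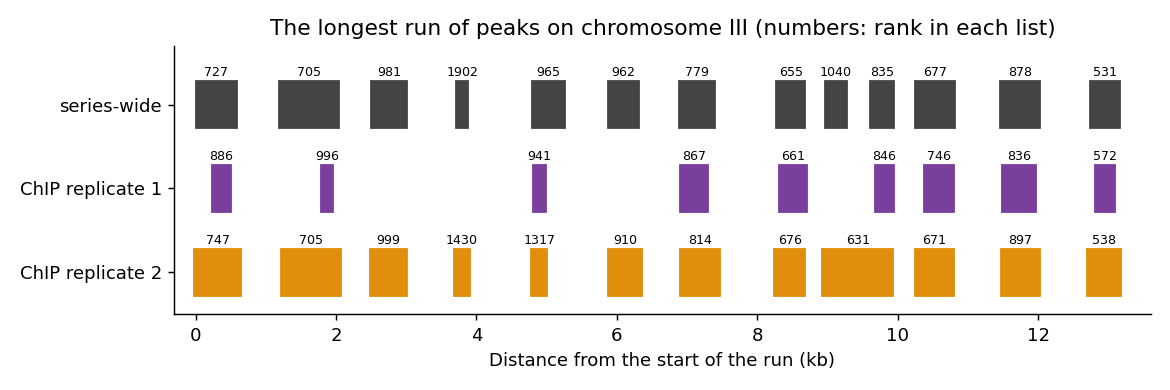
The longest run of peaks on III in the 3 lists; boxes span each peak from start to end, by distance from the start of the run (kb), and the number over a box is its rank in that list. The 12 peaks of replicate 2 and the 9 of replicate 1 fall at the places of the 13 series-wide peaks, and a single replicate 2 peak (rank 631) overlaps 2 of them.

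The other long runs were weaker or shorter. III:3188586-3192181, 76.2 kb further along, had 4 peaks at ranks 611 to 1144, of which replicate 2 had all and replicate 1 had 2. III:2286435-2291236 had 5 peaks at ranks 753 to 2105. No peak of replicate 1 was there, replicate 2 had 4, and 1 was in neither. The run with the strongest peaks, III:1598920-1604985, had 3, all in quintile 1 and all in both replicates. Of the 37 runs, 7 held a quintile 1 peak. Peaks in runs were found in both replicates in 41.7% of cases (40 of 96) and lone peaks in 37.0% (101 of 273), with median widths of 364 and 337 bp, a contrast that was not tested.

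In bins of 1 Mb, peak numbers ran from 18 to 39. The fourth bin (3 to 4 Mb), which holds the runs of 13 and of 4, had the most in each list, with 39 series-wide, 21 in replicate 1 and 40 in replicate 2. Only 1 of its 39 was in quintile 1 and 30 were in quintiles 2 and 3. With runs as regions it fell to 23, below the 31 of the fifth bin and the 29 of the ninth. The ninth bin (8 to 9 Mb) had the most quintile 1 peaks, 8 of 30, and the thirteenth had none among 24. Over the 13 full bins, counts in replicate 1 and replicate 2 followed each other with Spearman's rho = 0.67, a description over bins of 1 chromosome. The longest stretches without a series-wide peak were III:9111157-9408409 (297 kb), III:9862203-10156236 (294 kb) and III:8164121-8344216 (180 kb). The first was empty in all 3 lists, and the other two each had 1 peak of replicate 2 alone. The median gap between neighbouring peaks was 21.4 kb, 59 gaps were 2 kb or less and 29 were over 100 kb.

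**Figure D4:**
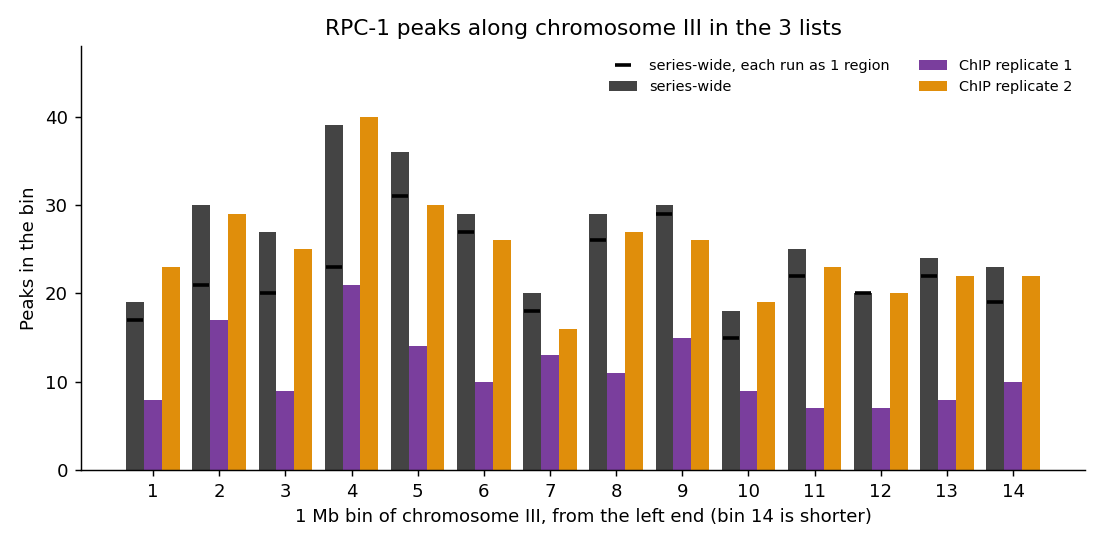
Peaks in each 1 Mb bin of III (x, bin 1 at the left end) in the series-wide list and in both ChIP replicates (bars); the short line on each series-wide bar gives its count when each close run is 1 region. The fourth bin is highest in each list and drops from 39 to 23 when runs are joined.

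The replicates were then compared on III. Nearly every replicate 1 peak was met again: 142 of 159 (89.3%, 83.5 to 93.2) overlapped a replicate 2 peak by at least 1 bp, beside 92.8% over all chromosomes. Of the 348 replicate 2 peaks, 140 (40.2%, 35.2 to 45.5) overlapped one of replicate 1, beside 45.0% genome-wide. All 86 replicate 1 peaks of its quintiles 1 to 3 were found, then 29 of 35 (82.9%) and 27 of 38 (71.1%). Over all chromosomes the shares for quintiles 1 to 5 were 100%, 100%, 99.5%, 88.1% and 76.1%. In replicate 2 the found numbers on III fell from 50 of 50 in quintile 1 to 63 of 72, 20 of 77, 6 of 77 and 1 of 72. These were 100%, 87.5%, 26.0%, 7.79% and 1.39%, beside 99.3%, 88.5%, 29.9%, 5.64% and 1.72% over all chromosomes. No difference by quintile was tested.

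Shared sites stood in a similar order in both replicates. Over the 142 pairs on III, caller values had a Spearman's rho of 0.917, given as a description. Numbered within III alone, the best 10 of both lists had 9 replicate 1 peaks in common. Among these, places 1 and 6 of replicate 1 overlapped the same replicate 2 peak, at place 1. A pair's place differed by a median of 10. III has 159 places in replicate 1 and 348 in replicate 2, so places beyond 159 exist in replicate 2 alone. The largest difference was at III:13462827-13463120, place 109 in replicate 1 and 308 in replicate 2. A stronger site with a large difference was III:4475440-4475773, place 60 (rank 463) and 256 (rank 1536). Midpoints lay a median of 36 bp apart, and within 100 bp in 122 pairs. Replicate 2 peaks were the wider in 123 of the pairs (86.6%), with medians of 518.5 against 401.5 bp, and 95 replicate 1 peaks lay wholly inside their partner.

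**Figure D5:**
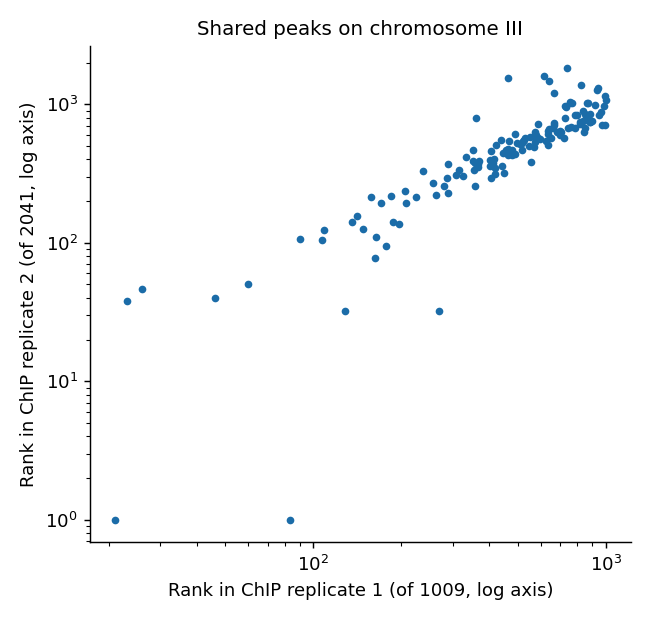
Rank of each of the 142 replicate 1 peaks of III that overlap a replicate 2 peak (x, genome-wide rank in replicate 1) against that of its best partner (y, rank in replicate 2); both axes are logarithmic. The 2 points at the bottom are the 2 replicate 1 peaks, ranked 21 and 83, that share 1 replicate 2 peak with a value of 0.

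Sites held by a single replicate had similar median ranks in the series-wide list, 1367 for the 148 peaks found in replicate 2 alone (609 to 2168) and 1393 for the 15 found in replicate 1 alone (1126 to 1518). The best replicate 2 peaks without a partner were III:12996707-12998112 (rank 600), III:12001177-12001913 (615), III:13040491-13041414 (646), III:2128814-2129765 (674) and III:11425909-11426701 (675). They were 737 to 1406 bp wide, 4 of the 5 were in the right segment, and all were in the series-wide list, at ranks 609 to 744. The best of replicate 1 were III:9545736-9546220 (rank 708), III:12978733-12979023 (714), III:1418749-1419037 (736), III:12429669-12429948 (771) and III:10357741-10358036 (791). They were 280 to 485 bp wide and had series-wide ranks of 1126 to 1466.

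In the series-wide list, 141 peaks of III (38.2%, 33.4 to 43.3) were found in both replicates, beside 42.3% of the whole list. The difference from the other chromosomes was −4.92 points (adjusted p = 0.17, Fisher's exact test), with an interval of −10.2 to 0.63. It changed sign, to 1.55 points, against the other autosomes alone. A further 148 peaks (40.1%) were in replicate 2 alone, beside 37.5% of all, 15 (4.07%) in replicate 1 alone, beside 3.22%, and 65 (17.6%) in neither, beside 17.0%. Median widths of these 4 sets were 516, 290, 274 and 199 bp. By quintile the number in both went from 52 of 52 to 69 of 79, 19 of 79, 1 of 74 and 0 of 85. On III these shares were 100%, 87.3%, 24.1%, 1.35% and 0%. Over all chromosomes they were close to that, at 99.8%, 88.0%, 23.0%, 0.46% and 0%. Of the 141 peaks of III in both, 62 were in the left segment, 47 in the middle and 32 in the right. That is 43.4%, 38.5% and 30.8% of each segment's peaks. Median ranks of the segments were 1014, 1299 and 1287, and the share in both fell as rank worsened. Such shares by segment over all chromosomes are not given here, and no difference between segments was tested.

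The 65 peaks found in neither replicate were narrow and weak. The best were III:4019843-4020086 (rank 1480), III:5442899-5443102 (1492), III:4752787-4752903 (1494), III:10907696-10908024 (1571) and III:10747962-10748198 (1576). None of the 65 lay within 250 bp of a replicate peak, and 10 lay within 2 kb of one. The median distance to the nearest was 9.18 kb. The series-wide list met all 159 peaks that replicate 1 has on III, and 286 of the 348 (82.2%) of replicate 2. Shares over all chromosomes are not given here for these counts.

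Peak limits moved between lists. On III, 3 series-wide peaks each overlapped 2 replicate 1 peaks: the 2 strongest sites and III:13224169-13225303 (rank 238), which overlapped 2 peaks of replicate 2 as well. In the other direction 4 replicate 2 peaks each overlapped 2 series-wide peaks. One of them, III:9053613-9054634 (rank 77), spanned the strong III:9053702-9054258 (rank 122) and a 21 bp peak at rank 1879. Widths on III ran from 2 to 2546 bp with a median of 351 bp, and 10 peaks were under 50 bp. Median width fell with rank from 623.5 bp in quintile 1 to 485, 330, 259.5 and 185 bp. On the other autosomes together the medians in the same quintiles were 649, 462, 333, 235 and 199 bp. The quintile medians of III thus differed from these by at most 25.5 bp.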

How the data were processed

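The authors deposited peak lists for 2 ChIP libraries and for the series; the input libraries enter only through their peak calling. Peaks were called with PeakSeq on WormBase WS220, per the file headers and source field. Each deposited value is a p-value or q-value between 0 and 0.001. The value times the number in the peak's name never falls with that number in any list, the form that a q-value of p times tests over rank has. The value itself fell 564 times over the 2173 series-wide peaks, 157 times over the 1009 of replicate 1 and 932 times over the 2041 of replicate 2. Ranks by value shifted from the order of those numbers by at most 15, 7 and 50 places. No source used here gives the aligner, threshold, control library or the making of the series-wide list, and the files hold no depth. Peaks were ranked by value (ties by chromosome and start). A chromosome's span ends at its last peak in any list. Overlaps needed 1 bp and runs had gaps of at most 2 kb. Shares have Wilson intervals and differences Newcombe intervals, which cover counting error only; neighbouring peaks are not independent. The 6 tests, exact binomial or Fisher's exact, all two-sided, were adjusted by Benjamini-Hochberg. Regions named were the 10 best, the 5 widest, the 5 best of each replicate without a partner, the 5 best in neither replicate, runs of 4 or more peaks and the 3 longest empty stretches; any other was picked after its values were seen. The set of peaks and all rules were chosen with earlier results of these data known. The work used Python 3.11.15 with scipy 1.17.1, numpy 2.4.6, matplotlib 3.10.9 and pandas 2.3.3, and its functions were tested on simulated data.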

Additional observations from a re-analysis of the deposited data

How the results depend on the processing

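Depth is unknown, so a list's length cannot be set against its reads. No paired analysis was possible because the input libraries have no peak list here. Differences below are in percentage points. The share of peaks on III minus its share of the span (3.22) was 1.80 in the best 50% of each list; leaving out one replicate gave 2.00 to 3.29, and 2.00, with replicate 1 alone, missed the threshold (exact binomial test, adjusted p from 5.9e-06 to 0.2 over its alternatives). The best-quintile difference (−7.14) was −0.56 against autosomes only and 0.62 with runs also joined; leaving out one replicate gave −8.09 to −6.84, and −8.09, with replicate 1 alone, missed the threshold (Fisher's exact test, adjusted p = 0.11, and from 0.0088 to 0.87 over its alternatives). The difference in peaks found in both replicates (−4.92) was 1.55 against autosomes only and 0.85 with runs also joined. With a replicate left out, the share of series-wide peaks overlapping the kept replicate was compared instead, which is another measure. Its difference was −3.90 for replicate 1 and −1.78 for replicate 2. The middle share minus an even spread (−0.27) was 2.80 with each run as 1 region and 0.94 without the longest run; leaving out one replicate gave −2.59 to 0. The close-run difference (2.68) was −0.022 without the longest run; leaving out one replicate gave −2.43 to 2.45. The cause of these changes was not tested. Joining runs in the autosomal comparison and leaving out the longest run were chosen after seeing the data. The longest run was left out on III alone and lies in its left segment. That step could only raise the middle share and lower the close-run difference. All other alternatives kept direction and side of the threshold: 50% overlap of the smaller peak, gaps of 1 and 5 kb, and the middle 50% of the span.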
